A study of Homo sapiens with 6 samples.

Results

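The 7 death receptor genes FAS, TNFRSF10A, TNFRSF10B, TNFRSF10C, TNFRSF10D, EDA2R and TNFRSF1A were chosen by name. A gene was represented by the probe set that names it alone in the platform annotation, and by the brightest where there are several. This gave a value for 6 of the 7, each with 1 probe set, among 18404 genes measured in the same way. TNFRSF10C was not analysed here, because its probe set also names another gene.

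Death receptors are cell surface proteins of the tumour necrosis factor (TNF) receptor family. When FAS or the TRAIL receptors TNFRSF10A and TNFRSF10B bind their ligands, a death domain in their cytoplasmic tail recruits the adaptor FADD and caspase-8, which starts apoptosis. TNFRSF10C and TNFRSF10D bind TRAIL without a working death domain and are known as decoys. TNFRSF1A, the main receptor of TNF, also has a death domain but signals first through TRADD to NF-kB. EDA2R, which binds ectodysplasin A2, has no death domain. FAS, TNFRSF10B and EDA2R are well-known transcriptional targets of p53.

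The cells were H226, a human lung squamous carcinoma line carrying an inducible shRNA against p63, a p53 family transcription factor of basal and squamous epithelia. RNA was hybridised to 6 Affymetrix arrays, 2 in each of 3 groups, and all cells were plated 24 h before treatment. The shRNA was off in control cells, which got no drug. It was off too in the Nutlin-3 cells, exposed for 12 h to 10 µM of this small molecule, which frees p53 from its inhibitor MDM2. In shp63 ON cells it was induced by doxycycline at 1 µg/mL over 48 h. What doxycycline, the longer exposure, p63 loss and off-target silencing each contribute to that group cannot be told apart, and every array comes from the same line. The target gene of the shRNA was not analysed here, so the labels of that group were not checked on it. The labels do not say whether replicates were separate cultures, so p-values measure the spread between these arrays, which may be technical. All p-values come from limma's model over 18404 genes with Benjamini-Hochberg adjustment, and called means an adjusted p below 0.05. The smallest two-sided p of an exact permutation test on 2 against 2 arrays is 0.333.

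On the log2 scale of the deposited table, values ran from 2.94 to 14.9, and replicate arrays correlated across genes at 0.997 to 0.998. The p53 target CDKN1A, which encodes the cell cycle inhibitor p21, rose with Nutlin-3 (log2 fold change 1.59, SE 0.06), and so did MDM2 (1.30, SE 0.14). The MDM2 call was lost without moderation of the variances (adjusted p = 0.0721). Of 6 squamous and basal markers with a value, KRT5 lay between 11.87 and 12.39 and SOX2 between 5.69 and 5.79 over the arrays. DSG3, a desmosomal cadherin, read 9.03 and 9.12 in control, 11.12 and 11.10 with Nutlin-3, and 8.33 and 8.37 in shp63 ON. It was the one squamous marker called with Nutlin-3 (2.03, SE 0.06). Of 5 leukocyte markers, PTPRC (4.24 to 4.48) and LYZ (4.57 to 4.80) were low on all arrays. CD68, which other cells also express, rose from 9.27 and 9.30 in control to 10.02 and 10.05 in shp63 ON, and CD14 from 6.21 and 6.19 to 6.92 and 6.72. The median log2 fold change of the 6 squamous markers was -0.01 with Nutlin-3. In shp63 ON it was -0.09, with 1 marker called higher, 2 lower and 3 not called. PKP1, for one, went from 6.82 and 6.87 in control to 7.26 and 7.16 in shp63 ON, opposite to DSG3. The mean log2 level of the squamous markers was 9.39 and 9.43 in control, 9.73 and 9.70 with Nutlin-3, and 9.29 and 9.24 in shp63 ON. That of the leukocyte markers was 5.92 and 5.92, 5.91 and 5.84, and 6.24 and 6.22. Endothelial, mesothelial and fibroblast markers were also measured. In shp63 ON, 2 of 4, 2 of 4 and 1 of 5 were called higher and none lower, beside 19.7% of all genes higher. With Nutlin-3, 1 endothelial marker was called lower and no other of them was called. The endothelial CDH5 read 8.58 and 8.52 in control, 8.10 and 8.07 with Nutlin-3, and 9.21 and 9.03 in shp63 ON. The mesothelial MSLN lay between 9.76 and 10.09 over the arrays. The part of any of these lists in the results below was not tested.

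Sequence upstream of annotated RefSeq starts (GRCh38.p14) was available here for 3 of the 7 genes, FAS, EDA2R and TNFRSF1A, and is shown for these. The TNFRSF10 genes had no such sequence in the reference used, so they were not searched. With Nutlin-3, EDA2R rose most, FAS also rose and TNFRSF1A did not pass. Each line gives 250 bases before a start, 5′ to 3′ on the gene's own strand. Capitals mark matches to the p53 decamer consensus, a motif that reads as itself on the opposite strand and that p53 binds in pairs.
FAS: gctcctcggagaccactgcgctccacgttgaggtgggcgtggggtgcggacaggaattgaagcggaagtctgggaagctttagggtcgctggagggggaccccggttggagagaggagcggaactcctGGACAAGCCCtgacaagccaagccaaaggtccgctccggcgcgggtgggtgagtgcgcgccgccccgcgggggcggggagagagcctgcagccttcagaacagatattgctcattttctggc
EDA2R: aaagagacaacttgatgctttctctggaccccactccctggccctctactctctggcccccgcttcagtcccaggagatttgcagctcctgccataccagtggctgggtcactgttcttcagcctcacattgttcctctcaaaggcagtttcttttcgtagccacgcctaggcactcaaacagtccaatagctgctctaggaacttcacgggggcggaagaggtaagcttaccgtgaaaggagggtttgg
TNFRSF1A: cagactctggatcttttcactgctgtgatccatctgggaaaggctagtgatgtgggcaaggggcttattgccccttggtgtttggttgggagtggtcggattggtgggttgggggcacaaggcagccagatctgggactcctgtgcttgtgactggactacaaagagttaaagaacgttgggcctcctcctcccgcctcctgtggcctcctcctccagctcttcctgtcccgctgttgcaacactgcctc

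The FAS window is chr10:88991181-88991430 on the plus strand, the one of 3 FAS windows that holds the decamer. The match, GGACAAGCCC, lies 122 to 113 bases before that start, at chr10:88991309-88991318. This start is 633 bases downstream of the first listed FAS start, and an intronic p53 element of FAS is well known. Neither of the 2 EDA2R windows (chrX:66639270-66639519 on the minus strand is shown) nor the TNFRSF1A window (chr12:6342077-6342326, minus strand) holds the decamer, and nor do the windows of CDKN1A and MDM2. Of the 35116 such windows in the reference used, which lacks some genes, 5.57% hold it. That share is per window, whereas the FAS window shown was picked from 3 for its match. A match describes letters in these windows and is no measure of binding, and no match says nothing of sites elsewhere.

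Nutlin-3 against control compares these receptor genes in cells exposed to Nutlin-3 for 12 h and in cells labelled as normal growth. The part of solvent or time in culture in this difference was not tested. Whether the changes depend on p53 was not tested, because no group had p53 removed. Of the 6 receptor genes, 5 rose and none fell, against 9.64% of all genes called higher and 8.89% called lower in this comparison. Among the 2282 genes with a mean level in the range of the 6 receptors, 16.2% were called higher and 9.82% lower. The 5 that rose did so by 2.01-fold to 3.99-fold, and TNFRSF1A did not pass. The median log2 fold change of the 6 genes was 1.17, beside -0.0025 over all genes.

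**Figure D1:**
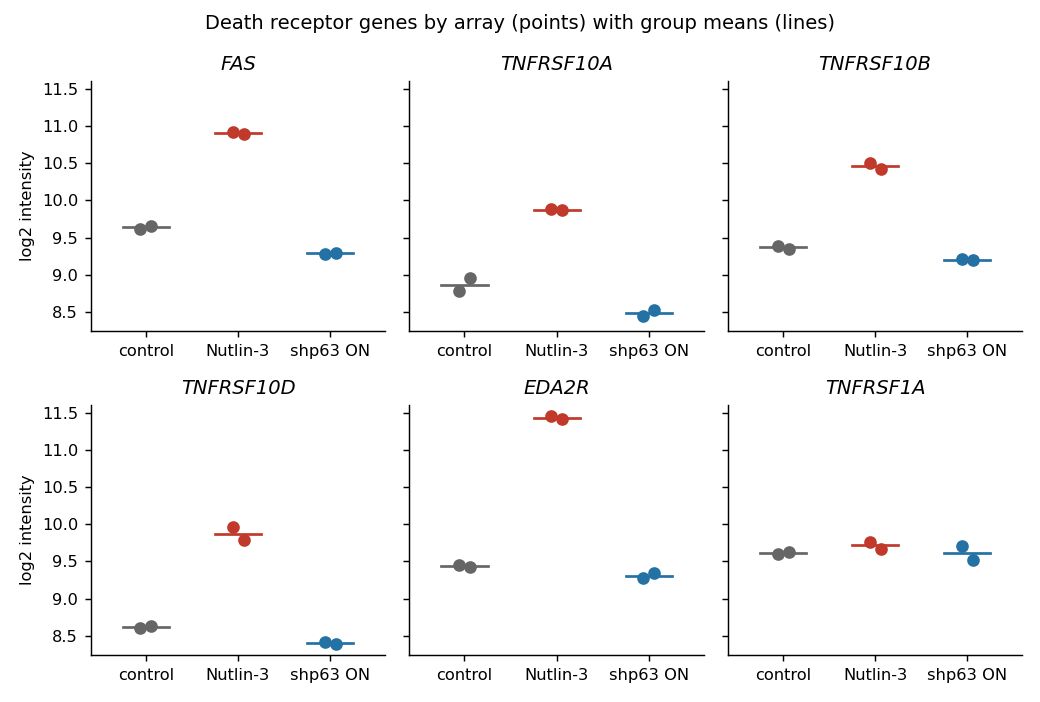
Log2 intensity of 6 death receptor genes on each array (points, 2 per group) with group means (lines), for control, Nutlin-3 and shp63 ON cells. FAS, TNFRSF10A, TNFRSF10B, TNFRSF10D and EDA2R are highest on both Nutlin-3 arrays and lowest on both shp63 ON arrays, while TNFRSF1A stays between 9.52 and 9.76 on all 6 arrays.

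Among the receptors with a death domain, FAS read 9.62 and 9.66 (log2 intensity) on the control arrays, 10.93 and 10.90 with Nutlin-3, and 9.28 and 9.29 in shp63 ON. The Nutlin-3 arrays were the highest and the shp63 ON arrays the lowest, and no groups overlapped. The rise with Nutlin-3 was 2.42-fold (log2 fold change 1.27, SE 0.06, 95% confidence interval 1.13 to 1.41, limma adjusted p = 1.8e-05), which ranked 69th from the largest rise among all genes.

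TNFRSF10A, the TRAIL receptor also called DR4, read 8.78 and 8.96 in control, 9.88 and 9.87 with Nutlin-3, and 8.45 and 8.53 in shp63 ON. Its control arrays differed more from each other (SD 0.13) than its Nutlin-3 arrays did (SD 0.0086), yet the groups stayed apart. It rose 2.01-fold with Nutlin-3 (1.01, SE 0.08, interval 0.82 to 1.19), the smallest of the 5 rises.

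TNFRSF10B, the TRAIL receptor DR5, read 9.39 and 9.35 in control, 10.51 and 10.42 with Nutlin-3, and 9.21 and 9.20 in shp63 ON. Again the Nutlin-3 arrays stood above all others. The rise was 2.14-fold (1.09, SE 0.06, interval 0.95 to 1.24), and the intervals of both TRAIL receptors with a death domain overlapped widely.

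TNFRSF1A read 9.60 and 9.62 in control, 9.76 and 9.67 with Nutlin-3, and 9.71 and 9.52 in shp63 ON. Both Nutlin-3 arrays were above both control arrays, as for 30.2% of all genes, but the shp63 ON pair spanned the control values. The log2 fold change with Nutlin-3 was 0.10 (SE 0.08, interval -0.08 to 0.29, limma adjusted p = 0.424), so its upper bound lay below the lower bound of each of the other 5 genes.

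TNFRSF10D, the decoy whose death domain is cut short, read 8.61 and 8.63 in control, 9.96 and 9.78 with Nutlin-3, and 8.42 and 8.40 in shp63 ON. The lowest Nutlin-3 array was still above every other array. It rose 2.38-fold (1.25, SE 0.08, interval 1.07 to 1.42), a change whose interval overlapped those of both TRAIL receptors with a death domain.

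EDA2R read 9.45 and 9.42 in control, 11.45 and 11.41 with Nutlin-3, and 9.27 and 9.34 in shp63 ON. The Nutlin-3 arrays lay far above the other 4, which fell within a narrow band. The rise was 3.99-fold (2.00, SE 0.06, interval 1.85 to 2.14, limma adjusted p = 3.8e-06), ranked 13th among all genes, and its interval did not reach those of the other receptors. The 5 calls with Nutlin-3 held in all 17 other settings tried, with the fold changes of FAS between 1.25 and 1.33 and of EDA2R between 1.97 and 2.06 on the log2 scale.

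**Figure D2:**
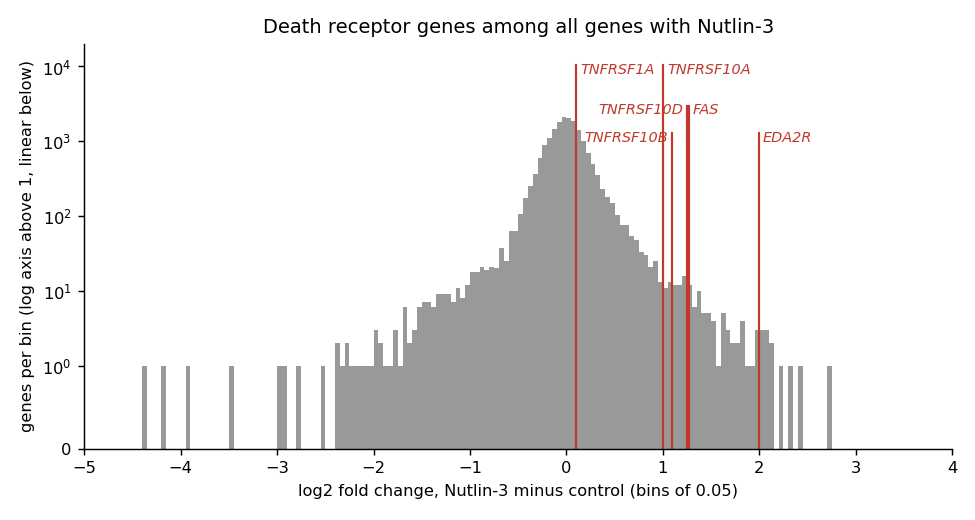
Number of genes in each bin of log2 fold change, Nutlin-3 minus control, over all 18404 genes (grey; log axis above 1), with red lines at the values of 6 death receptor genes. TNFRSF1A (0.10) lies within the bulk of genes, TNFRSF10A, TNFRSF10B, TNFRSF10D and FAS lie between 1.01 and 1.27, and EDA2R (2.00) lies near the upper end.

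The comparison of shp63 ON against control sets cells with the p63 shRNA induced by doxycycline over 48 h beside untreated cells. In it no receptor gene was called higher, 2 of 6 were called lower and 4 did not pass. Over all genes 19.7% were called higher and 16.5% lower. Among the 2282 genes with a mean level in the range of the 6 receptors, 27.8% were, so the share of the receptors was not far from that of genes of like intensity. The median log2 fold change of those 2282 genes was -0.06, against -0.19 for the receptors and 0.04 for all genes. FAS fell 1.28-fold (log2 fold change -0.35, SE 0.06, interval -0.49 to -0.21, limma adjusted p = 0.0043), and this call held in all 17 other settings, between -0.41 and -0.26.

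TNFRSF10A fell 1.30-fold (-0.38, SE 0.08, interval -0.56 to -0.19, limma adjusted p = 0.0092). This call was lost without control replicate 2 (adjusted p = 0.0622), without shp63_on replicate 1 (0.0555) and without moderation (0.0774), over a range of 0.0016 to 0.0774. Either array's removal left 1 of the 6 genes called. TNFRSF10D (-0.22, SE 0.08, interval -0.39 to -0.04, adjusted p = 0.0577) and TNFRSF10B (-0.16, SE 0.06, interval -0.31 to -0.01, adjusted p = 0.0844) did not pass in limma. Over the 17 other settings the TNFRSF10D difference ran from -0.28 to -0.14, and 6 settings called it. Its limma adjusted p was 0.0254 with arrays centred on their medians. The TNFRSF10B difference ran from -0.22 to -0.066, and 2 settings called it. Both of their shp63 ON arrays were nevertheless below both control arrays, as were those of EDA2R. Over all genes 30.4% had shp63 ON arrays that all lay below control.

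EDA2R, which changed most with Nutlin-3, differed from control by -0.13 in shp63 ON (SE 0.06, interval -0.27 to 0.02, limma adjusted p = 0.148). TNFRSF1A differed by 0.01 (SE 0.08, interval -0.18 to 0.19), and its sign turned in 3 settings. Hence the order of levels was shp63 ON, control and Nutlin-3 from low to high for 5 genes. In TNFRSF10B, TNFRSF10D and EDA2R the lower neighbours in that order, shp63 ON and control, were not called different in the main fit.

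**Figure D3:**
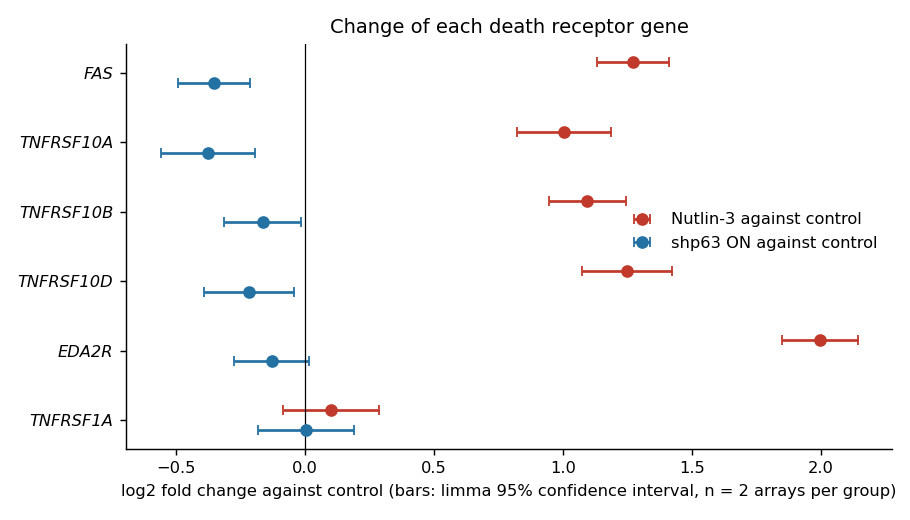
Log2 fold change against control of 6 death receptor genes with Nutlin-3 (red) and in shp63 ON (blue); bars are limma 95% confidence intervals, 2 arrays per group. The 5 Nutlin-3 intervals that lie right of 0 run from 0.82 to 2.14, whereas the shp63 ON intervals lie between -0.56 and 0.19.

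Set directly against Nutlin-3, shp63 ON cells had lower levels of the same 5 receptor genes, while 24% of all genes, and 40.7% of the 2282 genes of like intensity, were called lower in this comparison. The difference was -2.12 for EDA2R (SE 0.06, limma adjusted p = 2.4e-06), a 4.36-fold lower level, and -1.62 for FAS (SE 0.06, 3.08-fold lower). TNFRSF10D stood at -1.47, TNFRSF10A at -1.38 and TNFRSF10B at -1.26. Arrays of both groups stayed apart for these 5, as they did in this direction for 35.7% of all genes. TNFRSF1A did not pass (-0.10, SE 0.08, interval -0.28 to 0.09). Nutlin-3 and shp63 ON cells were sampled after different times and agents, so this difference compares the samples as treated. It shares its arrays with both comparisons above.

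Some of the receptor genes also share a position. In RefSeq order TNFRSF10B, TNFRSF10C, TNFRSF10D and TNFRSF10A lie in one cluster on chromosome 8, with no other protein-coding gene between them. The genes next to a receptor on each side, taken as the 2 nearest with a value by a rule added after the values were seen, changed less with Nutlin-3. Beside the cluster, PEBP4 (log2 fold change -0.04), CHMP7 (-0.11) and R3HCC1 (0.04) did not pass. RHOBTB2 was called lower with Nutlin-3 (-0.23, SE 0.06, limma adjusted p = 0.0460), a call that 11 of 17 other settings did not keep, and it fell in shp63 ON (-0.35, SE 0.06).

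ACTA2, smooth muscle actin, neighbours FAS and moved the opposite way in both comparisons. With Nutlin-3 it was lower (-0.40, SE 0.08, limma adjusted p = 0.0116), where FAS rose. This call was lost without control replicate 1 (0.0820), control replicate 2 (0.0606) or nutlin replicate 2 (0.0579) and without moderation (0.0998). In shp63 ON it was higher (0.63, SE 0.08, limma adjusted p = 0.000997), where FAS fell, and that call held in all 17 other settings. RefSeq lists an ACTA2 start on the opposite strand whose window overlaps the FAS window shown, and that ACTA2 window holds a p53 decamer of its own, AAACAAGCCT at chr10:88991547-88991556. On the other side of FAS, CH25H did not pass in either comparison (0.04 and 0.26), and LIPA, next along, was called higher with Nutlin-3 (0.32, SE 0.08), though not without either control array (limma adjusted p = 0.158 and 0.0791) or nutlin replicate 1 (0.110). Both genes next to EDA2R, HEPH (-0.02) and YIPF6 (0.14), did not pass with Nutlin-3, while STARD8 beyond was called lower (-0.23, SE 0.06) but lost its call whichever array was left out (limma adjusted p 0.0575 to 0.163). Next to TNFRSF1A, no pass was seen either for PLEKHG6 (-0.00035) and the sodium channel subunit SCNN1A (0.02). SCNN1A rose in shp63 ON (0.87, SE 0.07). So did PLEKHG6 (0.35, SE 0.07), CD9 beyond it (0.32, SE 0.06), STARD8 (0.36, SE 0.06) and ACTA2-AS1 beside ACTA2 (0.43, SE 0.10). The calls of PLEKHG6 and CD9 held in 16 of 17 other settings and that of ACTA2-AS1 in 14.

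**Figure D4:**
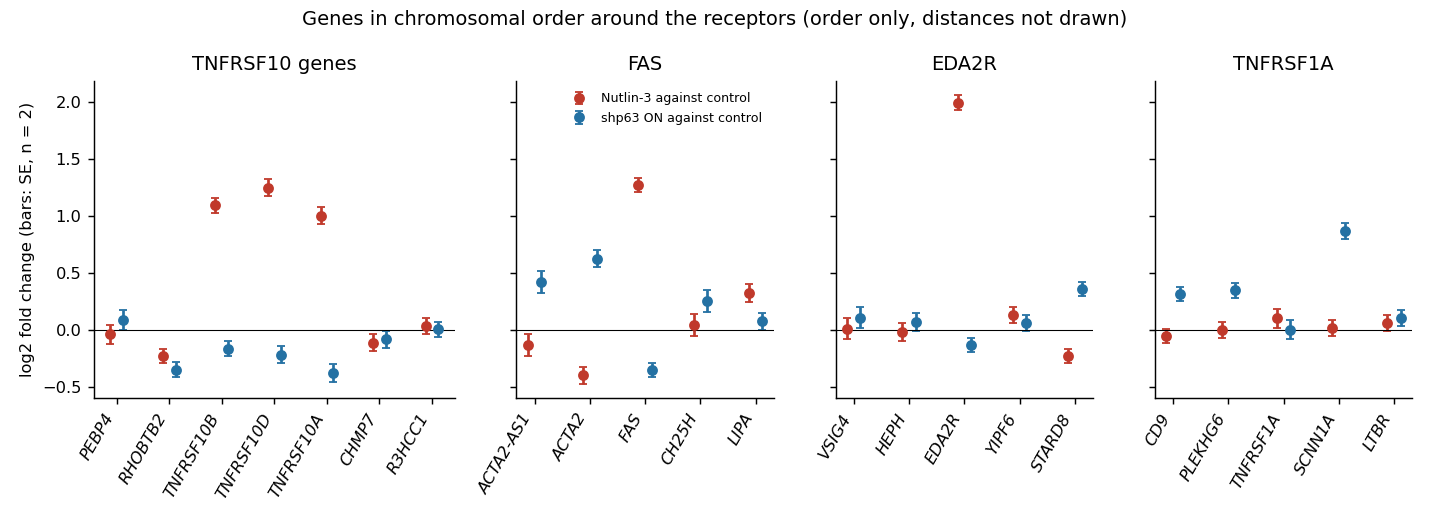
Log2 fold change against control with Nutlin-3 (red) and in shp63 ON (blue) for death receptor genes and their neighbours in chromosomal order; bars are standard errors, 2 arrays per group, and distances are not drawn. The TNFRSF10 genes (1.01 to 1.25), FAS (1.27) and EDA2R (2.00) stand above their neighbours with Nutlin-3, and ACTA2 moves opposite to FAS in both comparisons.

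The genes around the receptors were described in 5 lists. Of 10 ligand genes, 1 rose and 1 fell with Nutlin-3 (median log2 fold change 0.01), beside 9.64% of all genes called higher and 8.89% lower. The TRAIL gene TNFSF10, singled out after its values were seen, read 6.93 and 6.96 in control, 7.60 and 7.27 with Nutlin-3, and 6.76 and 6.39 in shp63 ON. Both Nutlin-3 arrays were thus above both control arrays and both shp63 ON arrays below them. Neither difference from control passed in limma (0.49, SE 0.14, adjusted p = 0.0509, and -0.37, SE 0.14, adjusted p = 0.0795), and 10 and 7 of 17 other settings called them. With single arrays left out, the first ran from 0.32 (without nutlin replicate 1) to 0.66 (without nutlin replicate 2) and the second from -0.55 (without shp63_on replicate 1) to -0.18 (without shp63_on replicate 2). Over all settings the adjusted p ran from 0.0218 to 0.267 and from 0.0339 to 0.375. Set against each other, shp63 ON was lower than Nutlin-3 (-0.86, SE 0.14, limma adjusted p = 0.0019). The FAS ligand gene FASLG, also chosen afterwards, stayed between 5.36 and 5.68 on all arrays and did not pass with Nutlin-3 (0.01, SE 0.08).

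In the list of death-inducing complex and caspase genes, 6 of 20 rose with Nutlin-3, none fell and 14 did not pass, beside 9.64% of all genes called higher and 8.89% lower. The list median was 0.02, and the 14 that did not pass lay between -0.24 (TRADD) and 0.22 (CASP6). PIDD1, a death domain protein that activates caspase-2, rose most (1.77, SE 0.10), from 8.24 and 8.26 to 10.08 and 9.96. CASP10, an initiator caspase recruited by FADD, went from 5.77 and 5.93 to 6.95 and 7.27 (1.26, SE 0.11). The pore-forming BAX (1.21, SE 0.07) and the apoptosome scaffold APAF1 (0.76, SE 0.07) followed. The calls of PIDD1, BAX and APAF1 held in all 17 other settings, and that of CASP10 was lost without moderation (adjusted p = 0.0525).

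The remaining 2 that rose, named after their values were seen, were caspase-8, CASP8 (0.55, SE 0.06), and BAK1 (0.47, SE 0.11). CASP8 kept its call in all 17 other settings. BAK1 lost its own when any single control or Nutlin-3 array was left out (log2 fold change 0.40 to 0.54). The BAK1 call was also lost with all probe sets tested (limma adjusted p = 0.0766) and without moderation (0.171). The adaptor FADD did not pass (0.03, SE 0.08), nor did the caspase-8 inhibitor CFLAR (0.18, SE 0.07) or the caspase-8 substrate BID (-0.05, SE 0.07). In shp63 ON, 3 of the 20 were called higher and 1 lower, beside 19.7% and 16.5% of all genes, and without control replicate 1 none was.

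The list counts that follow stand beside 9.64% of all genes called higher and 8.89% called lower with Nutlin-3. In the list of receptor decoys and modulators, 2 of 12 genes rose with Nutlin-3 and 3 fell. PTPN13, a phosphatase that binds FAS, stood at 0.34 (SE 0.06) and ADAM17, the protease that sheds TNF and its receptors, at 0.32 (SE 0.06). Of 29 genes of TNF receptor signalling, 4 rose and 1 fell. TAB3, a partner of the kinase TAK1, rose (0.57, SE 0.07) in all 17 other settings too, and the necroptosis effector MLKL was higher (0.44, SE 0.07). Of 20 other TNF receptor superfamily genes, 2 rose, led by NGFR (0.44, SE 0.07), and 4 fell, led by CD27 (-0.42, SE 0.08). Leaving out control replicate 1 ended the calls of PTPN13 (limma adjusted p = 0.0615), ADAM17 (0.0622), MLKL (0.0574), NGFR (0.0615) and CD27 (0.0640). Leaving out control replicate 2 ended those of PTPN13 (0.0513), ADAM17 (0.0716) and CD27 (0.0853), and leaving out nutlin replicate 1 that of CD27 (0.0592). Over the 71 genes of the 4 lists other than caspases, 9 rose and 9 fell with Nutlin-3. These counts were 1 and 0 without control replicate 1, 3 and 1 without control replicate 2, 6 and 5 without nutlin replicate 1 and 7 and 2 without nutlin replicate 2. They were 10 and 4 without either shp63 ON array, and 14 and 1 with each array centred on its median.

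In shp63 ON, 9 of 20 other receptor genes and 5 of 10 ligand genes were called higher and none lower, beside 19.7% of all genes called higher. The mean log2 intensity of these lists was 7.44 and 6.64, while the medians of the arrays lay between 6.57 and 6.70. The receptor TNFRSF8 (0.49, SE 0.08) and the ligands TNF (0.56, SE 0.12) and LTB (0.52, SE 0.07) led them, and of these LTB held in all 17 other settings. TNF lost its call without control replicate 1 (limma adjusted p = 0.0571) or shp63_on replicate 1 (0.0529). After cyclic loess normalization, which removes trends with intensity, 5 and 3 were called higher. Without control replicate 1 the counts were 3 and 1, without control replicate 2 they were 1 and 2, without shp63_on replicate 1 they were 3 and 2, and without shp63_on replicate 2 they were 2 and 3. In the TNF receptor signalling list 6 of 29 fell, beside 16.5% of all genes, and 4 rose, and leaving out either control array, or shp63_on replicate 1, took the 4 to 1. Over all 91 genes of the 5 lists 24 rose and 10 fell in shp63 ON, and 15 and 14 with each array centred on its median. MLKL (-0.53, SE 0.07), the NF-kB inhibitor TNFAIP3 (-0.46, SE 0.06) and the deubiquitinase OTULIN (-0.37, SE 0.07) fell in all 17 other settings too. MLKL thus had Nutlin-3 arrays of 8.21 and 8.19, control arrays of 7.71 and 7.82 and shp63 ON arrays of 7.29 and 7.17. Among the 12 receptor decoys and modulators 3 rose and 3 fell, with FUT6 (0.43, SE 0.08) and the caveolin CAV1 (-0.33, SE 0.06) as examples.

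**Figure D5:**
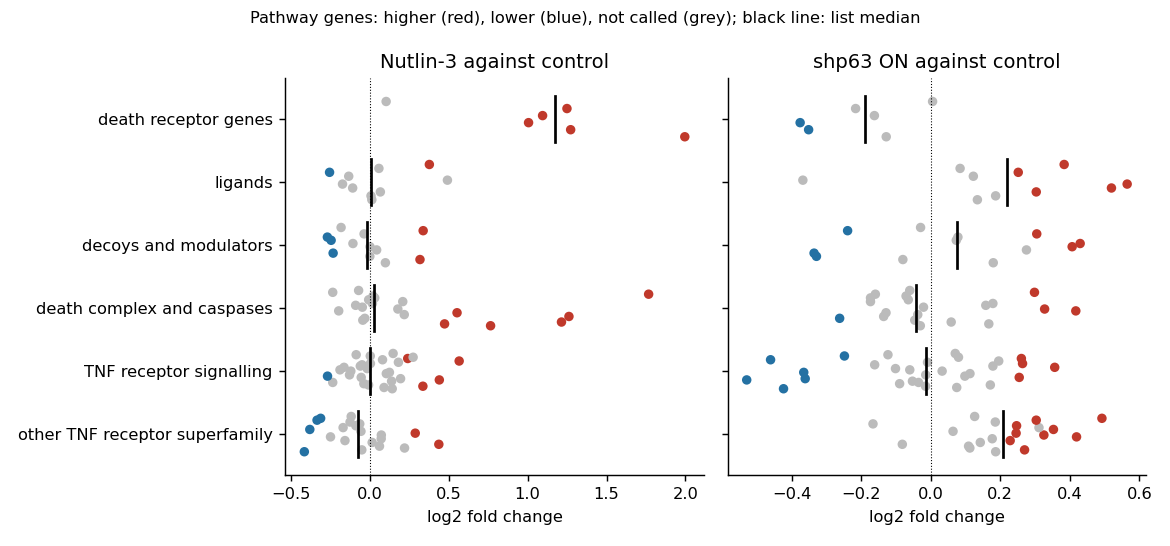
Log2 fold change against control with Nutlin-3 (left) and in shp63 ON (right) of 6 death receptor genes and of 5 lists of pathway genes; each point is a gene, red if called higher, blue if called lower and grey if not called, and black lines are list medians. With Nutlin-3 the receptor median (1.17) stands apart from list medians between -0.08 and 0.02, and 6 caspase list genes lie to the right.

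The search for like profiles covered protein-coding genes only, without LOC, KIAA, numbered FAM and open reading frame symbols. Distance was taken between array values relative to each gene's control mean, over 6 arrays. By this distance the genes most like each receptor in profile were found. For FAS they were the cytidine deaminase APOBEC3C (distance 0.05, with log2 fold changes of 1.26 with Nutlin-3 and -0.32 in shp63 ON), the lipid phosphatase INPP5D (0.06) and the sulfatase SULF2 (0.09). For EDA2R they were DQX1 (0.26), the ceramidase ACER2 (0.27, with 2.04 and -0.25) and the hormone STC1 (0.28). For TNFRSF10D they were ARAP1 (0.12), APOBEC3C (0.18) and CES2 (0.19). For TNFRSF10B they were the thrombin receptor F2R (0.17), the p53-regulated TRIAP1 (0.19) and RALGDS (0.20), and for TNFRSF10A they were MCC (0.16), ZNF37A (0.17) and COQ8A (0.17). Among the receptors themselves FAS and TNFRSF10D lay closest (0.22), then TNFRSF10B and TNFRSF10D (0.24), while EDA2R and TNFRSF1A lay farthest apart (2.69). Differences between groups and between replicate arrays both enter this distance, which describes 6 arrays.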

How the data were processed

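The authors deposited log2 probe set intensities of 6 arrays, with 32321 probe sets, of which 19158 name 1 gene, 1388 several and 11775 none. That scale was inferred from the numbers themselves (array medians 6.57 to 6.70). Per the submitters' processing notes Partek was used, version not given. Background correction and normalization methods were not given in the sources used here. Precision is limited by the number of arrays. By Entrez identifier 19128 probe sets matched RefSeq, with 0 changed symbols.

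With limma 3.58.1 in R 4.3.3, all 6 arrays entered a model with 1 mean for each group (3 residual degrees of freedom before moderation, no dim filter, no covariates). The fit was tested on simulated data. Other settings covered normalization, filters, moderation, the replicate number and arrays left out. The members, lists and tests were chosen with earlier results of these data known. Named genes are all members, MDM2, CDKN1A, up to 4 called genes per list and comparison with control, and 3 nearest profiles per member spanning at least 1. Outside this rule, and chosen after their values were seen, are TNFSF10, FASLG, CASP8, BAK1, the Nutlin-3 values of FADD, CFLAR, BID, TRADD and CASP6, the neighbours and the cell type markers named. Replicate numbers were not used to pair the arrays in the main fit, and the labels do not say whether they do. Deviations of same-numbered arrays correlated at -0.06, -0.02 and 0.11, which cannot settle it. Figures were drawn with matplotlib 3.10.9.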

Additional observations from a re-analysis of the deposited data

How the results depend on the processing

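Each result was recomputed in 17 other settings. Of 6 receptor genes, 5 were called with Nutlin-3 against control and 5 in shp63 ON against Nutlin-3 in every setting, leaving out each array included (5 to 5). In shp63 ON against control, 2 genes were called, and the count was 5 with arrays centred on their medians, 4 with an intensity trend in the moderation, 1 without moderation, and 1 to 3 with single arrays left out. Of 102 values of single receptors in that comparison, 87 kept direction and call, 3 lost a call, 9 gained one and 3 turned sign. All sign changes were in TNFRSF1A, which never passed: -0.056 with median centring, -0.0030 without control replicate 1 and -0.088 without shp63_on replicate 1 (range with single arrays left out -0.088 to 0.099), and, in shp63 ON against Nutlin-3, 0.032 after quantile normalization and 0.013 after cyclic loess. FASLG with Nutlin-3 turned to -0.098 without control replicate 2 and -0.024 without nutlin replicate 1 (range -0.098 to 0.11). The cause was not tested. With the replicate number as a block, 5, 2 and 5 receptor genes were called in the 3 comparisons, and no receptor call changed.

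Median centring moved the median of all genes in shp63 ON against Nutlin-3 from 0.03 to -0.10. Over all genes, 3410 were called with Nutlin-3 and 6670 in shp63 ON. These fell to 1236 and 3003 without moderation and to 1405 and 3932 without control replicate 1, and the first to 1773 with all probe sets tested. Without control replicate 2 they were 1656 and 3454, without nutlin replicate 2 the first was 2259, and without shp63_on replicate 1 the second was 4139. The 9481 genes called in shp63 ON against Nutlin-3 became 6089 without moderation. With 2 arrays per group, precision is limited: the 95% interval of TNFRSF10B in shp63 ON left out 0 (-0.31 to -0.01), yet its p did not pass after adjustment over all genes, except with median centring or an intensity trend.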
